A study of Mus musculus with 15 samples.

Results

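The genes described here encode integrin chains of white blood cells, most of them restricted to these cells: *Itgb7* (β7), its partner chains *Itga4* (α4) and *Itgae* (αE), *Itgb1* (β1), the widely expressed other partner of α4, and *Itgb2* (β2) with its partners *Itgal* (αL), *Itgam* (αM) and *Itgax* (αX). They are 8 of the 54532 genes in the table, found by gene symbol. The set was selected on measured values: *Itgb7* was chosen by its FPKM, which was lower in the AA group than in the M group, and the others as its partners and relatives. The M and AA values of *Itgb7* are therefore given as a description without a test, and so are the values of all 8 genes in AA vs. M.

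RNA was sequenced from 1 kidney each of 15 male C57BL/6 mice that were 8 weeks old at the start. The control group (C, n = 5) ate a normal diet, and the CKD model group (M, n = 5) ate chow with 0.25% adenine for 4 weeks and then standard chow. The AA group (n = 5) had the same adenine course plus asiatic acid, a plant triterpenoid, at 30 mg/kg by daily gavage, while the C and M mice were gavaged with the DMSO vehicle. Kidneys were taken after 8 weeks. Each library comes from its own mouse. The M group is a model of kidney injury by dietary adenine and carries no genetic change. Every sample is whole kidney, in which fewer cells of a type and less RNA per cell cannot be told apart.

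An integrin is a pair of one α and one β chain on the cell surface. α4β7 binds MAdCAM-1 on gut vessels and also VCAM-1 and fibronectin, and αEβ7 binds E-cadherin and holds lymphocytes in epithelia. The β2 integrins are restricted to leukocytes: αLβ2 (LFA-1) binds ICAMs and is typical of lymphocytes, and αMβ2 and αXβ2 are typical of myeloid cells. β1 is made by almost every cell. Retinoic acid is known to induce α4β7 and the chemokine receptor CCR9 on lymphocytes that will home to the gut.

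Values are FPKM, the reads on a gene scaled to exon length and library size, so levels of different genes can be set side by side. The libraries held 13647020 to 28884427 recovered reads, of which 53.0 to 87.2% were mitochondrial. This share followed the groups: it was 53.0 to 62.5% in the C libraries and higher in every M library (up to 86.8%) and AA library (69.2 to 87.2%). Reads outside the mitochondrial genome numbered 6951358 to 13576597 in the C, 2077628 to 7142897 in the M and 2225764 to 4271191 in the AA libraries. Low values thus rest on less depth in every AA library than in any C library, and the part of this in the group differences was not tested. M mice 1 to 3 stand apart: 10068 to 12222 genes had a value above 0 in them, against 23040 and 25460 in M mice 4 and 5 and 18695 to 25251 in the C and AA libraries, so the values of the 8 genes against the M group are also given with M mice 4 and 5 alone. In that smaller fit no gene of the table was called in M vs. C, so a call lost there carries no information about the gene. A value of 0 is reported as listed at 0, since *Ilk*, a kinase adaptor of nearly all adherent cells, was also listed at 0 in 13 of the 15 libraries. Fold changes are on the log2(FPKM + 1) scale, which understates the change of genes below an FPKM of about 1, and a gene was called when its limma adjusted p was at most 0.05 and its log2 fold change at least 1 in either direction.

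*Itgb7* was low in the C group, high in the M group and low in the AA group. Its FPKM was 0.202, 0.521, 0.245, 1.35 and 0.388 in C mice 1 to 5. It was 7.53, 5.39, 7.39, 2.73 and 8.61 in M mice 1 to 5. It was listed at 0 in AA mouse 1 and was 0.881, 0.144, 0.316 and 0.404 in AA mice 2 to 5. Every M kidney lay above every C and every AA kidney, and the C and AA kidneys overlapped. The log2 fold change was 2.22 (SE 0.33) in M vs. C, −2.40 (SE 0.33) in AA vs. M and −0.18 (SE 0.21) in AA vs. C. With M mice 4 and 5 alone it was 2.00 (SE 0.40) in M vs. C and −2.18 (SE 0.40) in AA vs. M. The recovered reads behind these values were 18 to 127 per C library, 156 to 744 per M library and 0 to 22 per AA library. Even numbers of reads were in excess over all low values (55.5 to 69.5% of the whole numbers in a library), so both mates of a pair may have been counted and these numbers may overstate the fragments. M vs. C and AA vs. M share the M libraries, so both differences of *Itgb7* rest on the same 5 kidneys.

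*Itgb7* (ENSMUSG00000001281) lies on the minus strand of chromosome 15 at 102215995 to 102231944 (GRCm38), with 2770 bases of joined exons that no other annotated gene shares. *Zfp740*, which encodes a zinc finger protein, begins at 102203249 and ends at 102215606, 388 bases from the 3′ end of *Itgb7*. Its FPKM was 4.43 to 10.6 in the C, 0.880 to 6.92 in the M and 2.49 to 5.30 in the AA group, and it was not called in M vs. C (log2 fold change −0.65, SE 0.46, adjusted p = 0.513) or AA vs. C (−0.58, SE 0.26, adjusted p = 0.0973). *Rarg*, which encodes the retinoic acid receptor γ, lies 2993 bases beyond the 5′ end of *Itgb7* on the same strand. Its FPKM was 3.31 to 4.44 in C kidneys, 4.65 to 11.6 in M kidneys and 3.77 to 7.72 in AA kidneys. The M kidneys lay above all C kidneys for *Rarg*, but it was not called in M vs. C (log2 fold change 0.83, SE 0.28, adjusted p = 0.174) or AA vs. C (0.38, SE 0.21, adjusted p = 0.168). For *Itgb7* the medians were 7.39 in the M, 0.388 in the C and 0.316 in the AA group. Both neighbours differed less between the groups, which the choice of *Itgb7* by its difference made likely, so nothing is read from it.

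The promoters of *Itgb7* and *Itga4* are shown because their products form α4β7 and the FPKM of *Itgb7* exceeded that of *Itga4* in every M kidney. The promoter of *Itgax*, a myeloid chain, is shown for comparison. Each run is 240 bases that end shortly before the RefSeq transcription start (GRCm38.p6), 5′ to 3′ on the gene's strand. They are chr15:102231946-102232185 (minus strand) for *Itgb7*, chr2:79255176-79255415 (plus strand) for *Itga4* and chr7:128129300-128129539 (plus strand) for *Itgax*. Capitals mark GGAA (the core bound by Ets factors), TGTGGT (a Runx site) and AGGTCA (a nuclear receptor half-site), on either strand.
Itgb7: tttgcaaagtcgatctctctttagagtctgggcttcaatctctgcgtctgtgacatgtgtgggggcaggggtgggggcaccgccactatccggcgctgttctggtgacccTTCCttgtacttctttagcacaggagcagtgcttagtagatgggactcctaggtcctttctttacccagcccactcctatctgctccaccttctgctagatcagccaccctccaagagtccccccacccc
Itga4: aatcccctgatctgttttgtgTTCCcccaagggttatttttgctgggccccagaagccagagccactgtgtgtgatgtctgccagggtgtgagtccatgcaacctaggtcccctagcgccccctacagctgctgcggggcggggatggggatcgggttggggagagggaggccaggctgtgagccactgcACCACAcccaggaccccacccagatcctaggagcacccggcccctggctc
Itgax: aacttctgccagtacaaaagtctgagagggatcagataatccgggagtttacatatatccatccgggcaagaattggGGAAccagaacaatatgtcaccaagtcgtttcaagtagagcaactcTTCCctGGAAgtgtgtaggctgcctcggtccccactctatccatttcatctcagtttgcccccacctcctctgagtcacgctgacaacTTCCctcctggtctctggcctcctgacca
The *Itgb7* run held 1 Ets core and neither other motif, the *Itga4* run 1 Ets core and 1 Runx site, and the *Itgax* run 4 Ets cores. The RefSeq promoter table used here held 5 of the 8 genes, and the runs of *Itgb1* and *Itgam* held 3 and 4 Ets cores. None of the 5 held AGGTCA. Over the 32851 promoters of the same length, 92.7% held GGAA, 13.6% TGTGGT and 13.5% AGGTCA, none of the motifs overlapping another in the runs shown, so the matches describe these windows and no more.

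**Figure D1:**
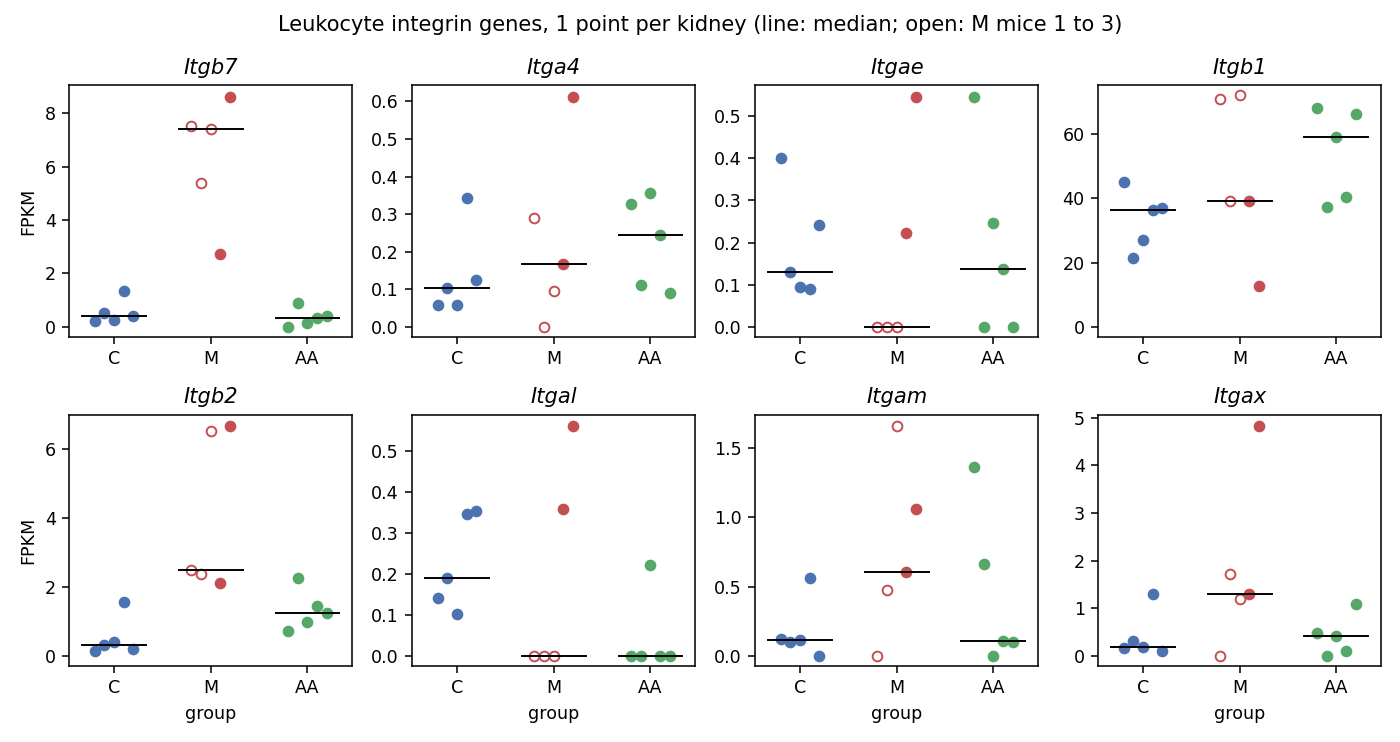
FPKM (y axis, own scale per gene) of the 8 integrin genes in each kidney of the C, M and AA groups, with 1 point per mouse in order of mouse number and the median as a line. Open points are M mice 1 to 3. The M kidneys lie above every C kidney for Itgb7 (2.73 to 8.61 against 0.202 to 1.35) and Itgb2 (2.13 to 6.68 against 0.133 to 1.56), and the groups overlap for the other 6 genes.

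For the partner chains of β7 the groups overlapped. *Itga4*, which pairs with β7 or β1 and lies on chromosome 2 at 79255426 to 79333123, had an FPKM of 0.0579, 0.103, 0.0592, 0.342 and 0.124 in C mice 1 to 5. It was 0.290 in M mouse 1, listed at 0 in M mouse 2, and 0.0948, 0.168 and 0.612 in M mice 3 to 5. It was 0.326, 0.111, 0.358, 0.243 and 0.0889 in AA mice 1 to 5. No group stood apart, and the log2 fold change was 0.10 (SE 0.13, limma adjusted p = 0.704) in M vs. C and 0.11 (SE 0.10, adjusted p = 0.418) in AA vs. C, and 0.01 (SE 0.14) in AA vs. M. With M mice 4 and 5 alone it was 0.28 (SE 0.15) against C and −0.17 (SE 0.18) for AA vs. M. *Cerkl* on the opposite strand shares 8.04% of its exon bases, and the library protocol used here names no strand marking, so their reads cannot be told apart there.

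*Itgae*, the partner that makes αEβ7 and marks lymphocytes lodged in epithelia, was lower still. Its FPKM was 0.401, 0.130, 0.0953, 0.0903 and 0.241 in C mice 1 to 5. It was listed at 0 in M mice 1 to 3 and was 0.223 and 0.546 in M mice 4 and 5. It was 0.545, 0.247 and 0.138 in AA mice 1, 3 and 4 and listed at 0 in AA mice 2 and 5. The M kidneys at 0 are those with few genes listed. Its log2 fold change was −0.06 (SE 0.13, adjusted p = 0.826) in M vs. C, 0.21 (SE 0.14, adjusted p = 0.639) with M mice 4 and 5 alone, −0.02 (SE 0.13, adjusted p = 0.917) in AA vs. C and 0.04 (SE 0.16) in AA vs. M (−0.23, SE 0.20, with M mice 4 and 5 alone).

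*Itgb7* was also set against its partners in the same library. These ratios reuse the M and AA values that chose *Itgb7*, so they are a description without a test. *Itga4* and *Itgae* stayed below an FPKM of 1 in every kidney, so the log2 ratios to them mostly follow *Itgb7* itself. The FPKM of *Itgb7* exceeded the sum of *Itga4* and *Itgae* in 5 of 5 M kidneys, 4 of 5 C kidneys and 2 of 5 AA kidneys. The excess was 6.98- to 77.9-fold in the 4 M kidneys in which a partner was listed above 0, 0.441- to 3.13-fold in the C kidneys and 0- to 7.93-fold in the AA kidneys. The 77.9-fold value is that of M mouse 3, with 18 recovered reads of *Itga4* and 0 of *Itgae*. In M mouse 2 both partners were listed at 0. The log2 ratio of *Itgb7* to *Itga4* (each FPKM + 1) was 0.40 ± 0.25 (SD, n = 5) in the C, 2.52 ± 0.49 in the M and 0.11 ± 0.47 in the AA group. The ratio to *Itgae* was 0.33 ± 0.49, 2.62 ± 0.60 and 0.17 ± 0.59 in the same order. Both ratios were higher in every M kidney than in any other kidney, including M mice 4 and 5, whose ratios to *Itga4* were 1.68 and 2.57. The same held for *Ptprc*, which encodes the leukocyte antigen CD45: the ratio was 0.02 ± 0.22 in the C, 1.94 ± 0.58 in the M and −0.74 ± 0.52 in the AA group.

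*Itgb1*, the alternative partner of α4, was the most abundant of the 8 genes in every kidney. Its FPKM was 45.0, 21.6, 27.0, 36.3 and 37.0 in C mice 1 to 5. It was 70.9, 39.0, 72.1, 39.3 and 12.6 in M mice 1 to 5, and 68.2, 37.1, 59.2, 40.5 and 66.2 in AA mice 1 to 5. The M kidneys spread on both sides of the C range, with mouse 5 below it, and AA mice 1, 3 and 5 lay above all C kidneys. The log2 fold change was 0.30 (SE 0.44, adjusted p = 0.749) in M vs. C, 0.69 (SE 0.27, adjusted p = 0.0639) in AA vs. C and 0.39 (SE 0.45) in AA vs. M. None of these was called, and the values in M vs. C and AA vs. C turned negative (−0.71 and −0.40) when FPKM was rescaled to TPM, which fixes the library total. With M mice 4 and 5 alone the value was −0.51 (SE 0.46, adjusted p = 0.754) in M vs. C and 1.19 (SE 0.45) in AA vs. M.

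*Itgb2* was the only one of the 7 genes other than *Itgb7* that was called in M vs. C. This β2 chain, on chromosome 10 at 77530252 to 77565708, is required for every β2 integrin to reach the leukocyte surface. Its FPKM was 0.133, 0.318, 0.414, 1.56 and 0.215 in C mice 1 to 5. It was 2.48, 2.38, 6.54, 2.13 and 6.68 in M mice 1 to 5, and 0.722, 2.25, 0.983, 1.46 and 1.26 in AA mice 1 to 5. All M kidneys lay above all C kidneys, and the AA kidneys lay between, with AA mouse 2 above M mouse 4 and C mouse 4 inside the AA range. In log2 fold change *Itgb2* rose by 1.67 (SE 0.36, limma adjusted p = 0.0415) in M vs. C, and its values were 0.65 (SE 0.26, adjusted p = 0.0654) in AA vs. C and −1.02 (SE 0.35) in AA vs. M.

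The call of *Itgb2* in M vs. C rested on single libraries. It was kept in 3 of the 10 fits that left out 1 mouse, those without C mouse 4, M mouse 4 or M mouse 5, with adjusted p-values of 0.0379 to 0.127 over the 10 fits and a log2 fold change of 1.49 to 1.87. With M mice 4 and 5 alone, where no gene was called, the value was 1.75 (SE 0.42, adjusted p = 0.139; −1.10, SE 0.40, in AA vs. M), with TPM 1.44 (SE 0.53, adjusted p = 0.0943), and by limma voom on the recovered reads 3.34 (SE 0.85, adjusted p = 0.0564).

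The α chains that pair with β2 had low values. *Itgax*, which marks dendritic cells and some macrophages, had an FPKM of 0.169, 0.321, 0.188, 1.31 and 0.0995 in C mice 1 to 5. It was listed at 0 in M mouse 1 and was 1.71, 1.20, 1.29 and 4.82 in M mice 2 to 5. It was 0.489, 0.416, 0.101 and 1.09 in AA mice 1, 3, 4 and 5 and listed at 0 in AA mouse 2. M mice 2 to 5 lay above all AA kidneys, and M mouse 1 lay with the lowest. For *Itgax* the log2 fold change was 0.82 (SE 0.41, adjusted p = 0.338) in M vs. C, 0.01 (SE 0.24) in AA vs. C and −0.81 (SE 0.40) in AA vs. M. Without M mice 1 to 3 the differences of *Itgax* were wider, 1.43 (SE 0.40, adjusted p = 0.197) in M vs. C and −1.41 (SE 0.40) in AA vs. M.

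*Itgam*, the αM chain of Mac-1 on monocytes, macrophages and neutrophils, was 0.124, 0.0990, 0.114 and 0.565 in C mice 1 to 4 and listed at 0 in C mouse 5. It was listed at 0 in M mouse 1 and was 0.476, 1.66, 0.604 and 1.06 in M mice 2 to 5. It was 1.36, 0.662, 0.106 and 0.0989 in AA mice 1, 2, 4 and 5 and listed at 0 in AA mouse 3. The groups overlapped, and the log2 fold change was 0.52 (SE 0.25, adjusted p = 0.313) in M vs. C and 0.23 (SE 0.22, adjusted p = 0.436) in AA vs. C, and −0.29 (SE 0.30) in AA vs. M. With M mice 4 and 5 alone it was 0.64 (SE 0.19, adjusted p = 0.215) against C and −0.41 (SE 0.33) for AA vs. M. Of its exon bases 68.7% belong also to a second gene model, *Gm49368*, which was listed at 0 in all 15 libraries, so the level of *Itgam* is uncertain.

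*Itgal*, the αL chain of LFA-1 on lymphocytes, was above 0 in 8 of the 15 libraries. Its FPKM was 0.142, 0.189, 0.103, 0.346 and 0.355 in C mice 1 to 5. It was 0.358 and 0.561 in M mice 4 and 5 and 0.223 in AA mouse 3, and listed at 0 in the other M and AA kidneys. The log2 fold change was −0.07 (SE 0.14, adjusted p = 0.807) in M vs. C (0.25, SE 0.13, adjusted p = 0.524, with M mice 4 and 5 alone) and −0.23 (SE 0.09, adjusted p = 0.0671) in AA vs. C. It was called in AA vs. C with a pseudocount of 0.1 (−1.30, adjusted p = 0.0363) and by limma voom on the recovered reads (−4.02, adjusted p = 0.00858). In AA vs. M it had too few libraries above 0 to be fitted.

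Of the 8 genes, 2 were called in M vs. C, both higher, where 0.269% of the 21153 genes tested were called higher, 1.11% lower and 1.38% in either direction. One of these is *Itgb7*, whose high M values chose it, so its call and its separation from C reuse those values, and without it 1 of 7 was called (*Itgb2*). The kidneys of M and C did not overlap for the same 2 genes, or 1 of 7 without *Itgb7*, beside 4.72% of all genes. In AA vs. M 1 of the 7 genes fitted was called lower, *Itgb7*, beside 1.07% of the 19798 genes tested (11.7% higher, 12.8% in either direction), a count that the choice of *Itgb7* fixed. The AA and M kidneys did not overlap for 1 of the 8 genes, *Itgb7*, beside 13.2% of all genes tested. None of the 8 was called in AA vs. C by limma, while 3 had an unadjusted p under 0.05 and 1 (*Itgal*, lower) was called by limma voom. Over all genes 19.8% were called there (10.2% higher, 9.61% lower), and 24% did not overlap between AA and C, against none of the 8. The median log2 fold change of the 8 genes was 0.41 in M vs. C, beside −0.12 over all genes, and 0.06 in AA vs. C, beside 0.09. It was −0.29 in AA vs. M over the 7 genes fitted, beside 0.17. Without *Itgb7* these medians were 0.30 in M vs. C, 0.11 in AA vs. C and −0.14 in AA vs. M.

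**Figure D2:**
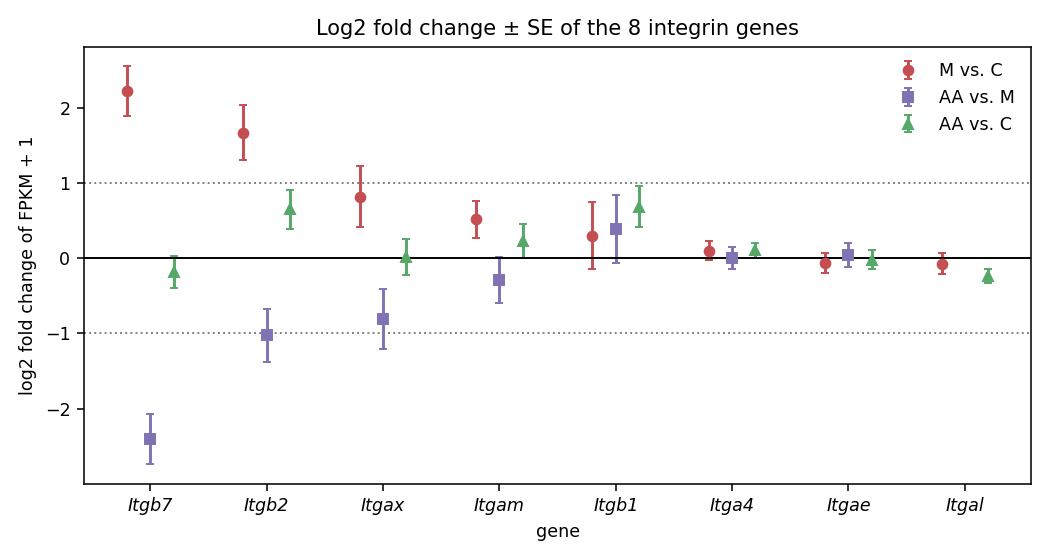
Log2 fold change of FPKM + 1 (y axis) with its SE for each of the 8 genes (x axis) in M vs. C, AA vs. C and AA vs. M, 5 kidneys a group, with dotted lines at −1 and 1. Itgb7 (2.22 and −2.40) and Itgb2 (1.67 and −1.02) pass the lines in M vs. C and AA vs. M, while Itga4, Itgae and Itgal stay near 0, and Itgal could not be fitted in AA vs. M.

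In the AA group *Itgb7* was low relative to *Itgb2*, a description that also reuses the values that chose *Itgb7*. The log2 ratio of *Itgb7* to *Itgb2* within a library was 0.04 ± 0.18 (SD, n = 5) in the C, 0.59 ± 0.49 in the M and −0.79 ± 0.08 in the AA group. The AA kidneys ran from −0.91 to −0.69, below every C kidney (−0.18 to 0.21) and every M kidney (0.15 to 1.29). This spread depends on the 1 added to each FPKM: with 0.1 added the AA kidneys ran from −3.04 to −1.26 (SD 0.70), still below the C (−0.58 to 0.63) and M kidneys (0.17 to 1.56). The C and M ranges overlapped. In FPKM, *Itgb2* exceeded the sum of its 3 partner chains in 4 of 5 M and 4 of 5 AA kidneys and in 1 of 5 C kidneys.

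**Figure D3:**
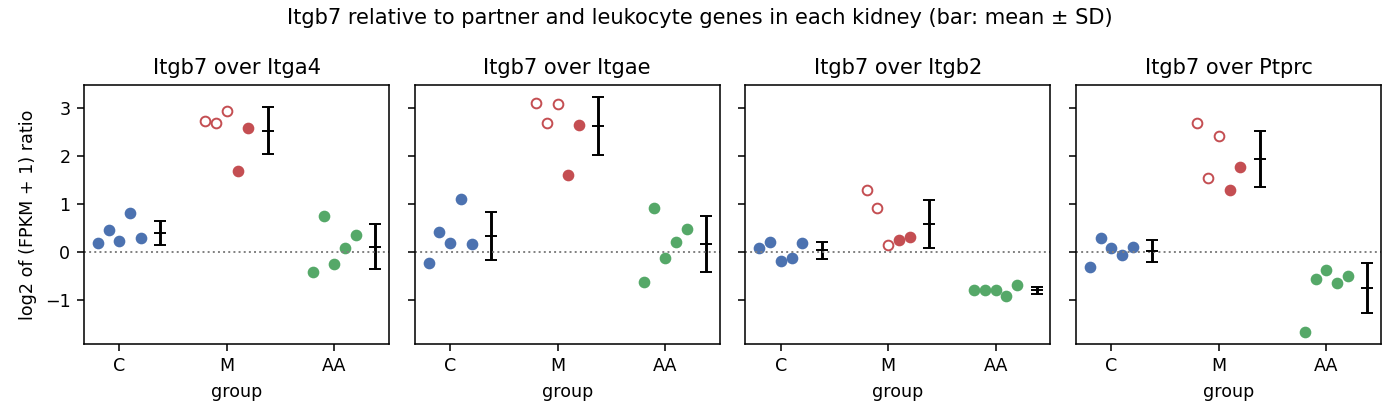
Log2 ratio of Itgb7 to Itga4, Itgae, Itgb2 and Ptprc (each FPKM + 1) in each kidney (y axis) by group (x axis), with mean ± SD beside the 5 points and M mice 1 to 3 open. The M kidneys lie highest against Itga4, Itgae and Ptprc (means 2.52, 2.62 and 1.94), and against Itgb2 the AA kidneys lie lowest (−0.91 to −0.69).

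Leukocyte markers were measured beside these genes, and their part in the integrin values was not tested. Of 10 macrophage and monocyte markers, 9 were fitted in M vs. C. Beside 0.269% of all genes, 4 of them were called higher (*Lyz2*, *C1qb*, *C1qc* and *Fcgr1*). Their log2 fold changes were 4.32, 2.73, 2.42 and 1.38, with adjusted p-values of 0.0190, 0.0246, 0.0233 and 0.0225, and with M mice 4 and 5 alone, where no gene was called, the values were 3.08, 2.51, 2.12 and 1.38. The 4 calls held in 6, 5, 5 and 6 of the 10 fits that left out 1 mouse, in the order named. The summed FPKM of the 10 markers was 17.1 to 106 in C kidneys, 143 to 417 in M kidneys and 101 to 152 in AA kidneys. The M range lay above the C range and overlapped with the AA range. Of the 9 fitted in AA vs. C, 4 were called higher and 1 lower, where 10.2% and 9.61% of all genes were. The lower one was *Csf1r* (−1.52, SE 0.31, limma adjusted p = 0.00376), with every AA kidney below every C kidney. It was also the only 1 of the 9 below 0 in M vs. C (−1.01, SE 0.37, limma adjusted p = 0.205). None of 8 pan-leukocyte markers was called in M vs. C (4 had an unadjusted p under 0.05, and limma voom called 1), and their sum was 4.50 to 36.2 in the C, 16.7 to 68.2 in the M and 14.5 to 30.7 in the AA group.

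Lymphoid markers were read in the same way. The summed FPKM of 10 T cell markers was 2.27 to 15.4 in the C, 5.72 to 33.7 in the M and 15.9 to 25.7 in the AA group, so the AA kidneys lay above the C range here, while *Itgb7* overlapped between these groups. Of these 10 genes 2 were called higher in AA vs. C, beside 10.2% of all genes. They were *Cd3e* and *Cd3g*, which encode chains of the T cell receptor complex, and the call of *Cd3e* was lost with TPM and centring. *Cd3d* (−0.23) and *Cd247* (−0.14), of the same complex, were below 0. Over the list 6 genes lay above 0 and 4 below, with a median of 0.06 beside 0.09 over all genes. The sum over 9 B and plasma cell markers was 15.4 to 61.3 in the C, 18.2 to 65.7 in the M and 11.9 to 25.0 in the AA group. Of these 9 genes 2 were called lower in AA vs. C, beside 9.61% of all genes. They were *Mzb1* (−1.87, SE 0.29) and *Cd79b* (−1.18, SE 0.34). Both were listed at 0 in every AA kidney and passed the filter only through the C kidneys, so no p-value is given. Every AA library also had fewer reads outside the mitochondrial genome than any C library. The 6 NK cell markers summed to 0.0142 to 1.40 in the C, 0 to 1.54 in the M and 1.82 to 4.19 in the AA group. The 7 dendritic cell markers summed to 6.16 to 75.2, 8.99 to 44.1 and 17.0 to 38.4, and the 7 neutrophil markers to 1.68 to 11.8, 2.19 to 41.0 and 0.800 to 13.7. Of 9 mast cell and basophil markers *Tpsb2* and *Fcer1a* were listed at 0 in all 15 libraries, and the sum was 3.66 to 7.28, 0.994 to 4.48 and 2.55 to 4.54. No other marker list had a gene at 0 throughout. In AA vs. C 1 of 2 NK cell markers fitted was called higher, beside 10.2% of all genes. There, 1 of 4 neutrophil markers and 1 of 4 mast cell and basophil markers were called lower, beside 9.61% of all genes. None of 7 dendritic cell markers was called there. With so few genes fitted, nothing is read from these counts. No gene of these lists or of the T cell and B and plasma cell lists was called in M vs. C.

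Markers of kidney cells also differed. The summed FPKM of 10 proximal tubule markers was 405 to 2719 in the C, 16.9 to 118 in the M and 46.4 to 86.2 in the AA group. Of these, 6 were called lower in the M and 7 in the AA group against C, beside 1.11% and 9.61% of all genes. The 8 fibroblast and mural markers summed to 69.9 to 161, 140 to 451 and 288 to 487, with 1 and 6 called higher, beside 0.269% and 10.2% of all genes. The 6 distal nephron markers summed to 111 to 505, 21.3 to 92.2 and 42.0 to 74.6, the 5 podocyte markers to 5.49 to 16.2, 2.38 to 23.7 and 9.18 to 14.6, and the 6 endothelial markers to 20.1 to 35.9, 14.2 to 27.8 and 9.15 to 17.1. The labelled tissue thus held its defining markers in every library, with the tubule markers lowest in the M and AA groups.

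Genes that bind these integrins were taken from a list of 16 ligands, 13 of which could be fitted. In M vs. C none was called by limma or limma voom, while 5 had an unadjusted p under 0.05. Against C, 4 were called higher and none lower in the AA group, where 10.2% of all genes were called higher. *Madcam1*, the main ligand of α4β7, was listed at 0 in all 15 kidneys, as was *Icam4*. *Vcam1*, the second ligand of α4 integrins, was 1.05 to 5.72 in C kidneys (median 2.77), 5.32 to 9.33 in M kidneys (7.88) and 4.23 to 9.33 in AA kidneys (7.29). Its log2 fold change was 1.13 (SE 0.33, adjusted p = 0.113) in M vs. C and 1.04 (SE 0.31, adjusted p = 0.0207) in AA vs. C, where the call was lost without C mouse 2 or 3 or AA mouse 1 or 2 and the value fell to 0.20 with TPM.

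*Fn1*, which encodes fibronectin, was higher in every AA kidney (30.2 to 70.1, median 58.3) than in any C kidney (7.05 to 22.3, median 18.9). Its log2 fold change in AA vs. C was 1.56 (SE 0.34, adjusted p = 0.00479), called without any 1 mouse but not with TPM (0.50). In the M group it was 11.8 to 55.7, with a log2 fold change of 0.92 (SE 0.45, adjusted p = 0.327) against C. *Thy1*, a ligand of β2 and other integrins, and *C3*, whose cleavage product iC3b is bound by αM and αX, rose in AA vs. C by 1.03 (SE 0.36, adjusted p = 0.0401) and 1.42 (SE 0.48, adjusted p = 0.0369). Their calls held in 4 and 2 of the 10 fits that left out 1 mouse.

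*Icam1*, the ligand of αLβ2 and αMβ2, was 1.72 to 3.98 in the C, 0.263 to 5.85 in the M and 3.49 to 7.90 in the AA group and was not called in M vs. C (−0.09, SE 0.45, adjusted p = 0.924) or AA vs. C (0.68, SE 0.25, adjusted p = 0.0469, short of the fold change needed). *Cdh1*, which encodes E-cadherin, the ligand of αEβ7, was 2.54 to 20.4 in the C, 0.628 to 3.96 in the M and 2.04 to 3.89 in the AA group. It was not called in M vs. C (−1.33, SE 0.51, adjusted p = 0.220) or AA vs. C (−0.91, SE 0.43, adjusted p = 0.113). The ligands that limma called in AA vs. C were higher there than in C, while *Itgb7* overlapped with C. By limma voom 7 ligands were called in AA vs. C, of which 5 were higher. *Icam2* was lower in every AA kidney than in any C kidney (−0.92, SE 0.17, limma adjusted p = 0.00218), short of the fold change needed.

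**Figure D4:**
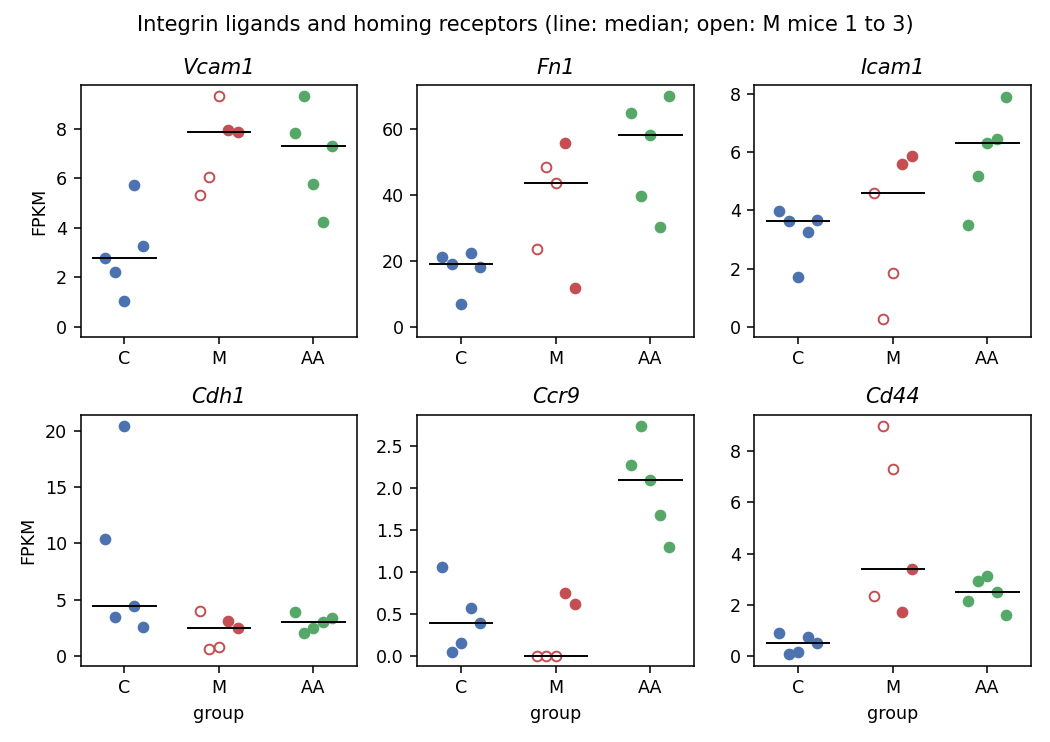
FPKM (y axis, own scale per gene) in each kidney of the C, M and AA groups for the ligand genes Vcam1, Fn1, Icam1 and Cdh1 and the homing receptor genes Ccr9 and Cd44, with medians as lines and M mice 1 to 3 open. Ccr9 is highest in the AA kidneys (1.30 to 2.73) and listed at 0 in M mice 1 to 3.

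Homing receptors act with integrins when leukocytes leave the blood. Of 14 such genes 10 were fitted in M vs. C and 1 was called, *Cd44*, the hyaluronan receptor, which was 0.0734 to 0.914 in the C and 1.73 to 8.98 in the M kidneys (log2 fold change 1.81, SE 0.39, adjusted p = 0.0402). That call held in 2 of the 10 fits without 1 mouse, and with M mice 4 and 5 alone the value was 1.26. In AA vs. C 4 of 12 were called, all higher (beside 10.2% of all genes, with 6 called by limma voom), among them *Cd44* (1.24, SE 0.23, adjusted p = 0.00212), *Ccr9* (1.09, SE 0.23, adjusted p = 0.00429) and *Ccr2* (1.11, SE 0.33, adjusted p = 0.0201). None of the 4 was called in AA vs. C with TPM.

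*Ccr9*, the receptor that directs lymphocytes to the small intestine together with α4β7, had an FPKM of 1.06, 0.0436, 0.151, 0.567 and 0.390 in C mice 1 to 5. It was listed at 0 in M mice 1 to 3 and was 0.748 and 0.618 in M mice 4 and 5. It was 2.28, 2.73, 2.09, 1.68 and 1.30 in AA mice 1 to 5. Every AA kidney lay above every C and M kidney, while *Itgb7* was low in both the C and AA kidneys. The M kidneys in which *Ccr9* was at 0 are those with few genes listed. Its log2 fold change was 1.27 (SE 0.28) in AA vs. M and −0.19 (SE 0.23, adjusted p = 0.696) in M vs. C. With M mice 4 and 5 alone it was 0.82 in AA vs. M and was not called. Besides TPM, the call in AA vs. C was lost with quantile normalization, with centring and without C mouse 2.

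Genes that activate integrins or tie them to the cytoskeleton formed a list of 20, of which 19 were fitted. In M vs. C 1 was called, *Tln2*, a talin (log2 fold change −1.31, SE 0.29, adjusted p = 0.0473), and the call held in 2 of the 10 fits without 1 mouse. Against C, 4 fell and 1 rose in the AA group, where 9.61% of all genes were called lower and 10.2% higher. *Tln1*, the talin of leukocytes and most other cells, was 12.1 to 23.3 in the C and 3.11 to 5.07 in the AA kidneys, and fell by 1.86 on the log2 scale (SE 0.23, adjusted p = 3.02e-04). In the M kidneys it was 2.98 to 18.1. *Sharpin*, an inhibitor of integrin activation, changed by −1.72 (SE 0.26, adjusted p = 7.41e-04), *Cyth1*, a regulator of β2 adhesion, by −1.59 (SE 0.30, adjusted p = 0.00260), and *Pxn*, which encodes paxillin and binds the α4 tail, by −1.02 (SE 0.30, adjusted p = 0.0204). *Skap1*, a T cell adaptor of LFA-1 activation, rose by 1.05 (SE 0.20, adjusted p = 0.00286). The calls of *Tln1*, *Sharpin* and *Cyth1* held under every alternative tried, that of *Pxn* was lost with quantile normalization and in 4 of 10 fits without 1 mouse, and that of *Skap1* with TPM, the non-mitochondrial total, quantile normalization and centring. *Fermt3*, the kindlin of blood cells, was not called in M vs. C (0.08, SE 0.53) or AA vs. C (−0.02, SE 0.27).

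The other integrin subunits numbered 19, of which 18 were fitted in each comparison with C. In M vs. C none was called by limma or by limma voom, and 3 had an unadjusted p under 0.05. Between AA and C 2 of 18 were called, beside 19.8% of all genes, while 9 had an unadjusted p under 0.05 and limma voom called 6 (3 higher and 3 lower). *Itga11*, a collagen receptor chain of fibroblasts, was 0.0499 to 0.661 in the C and 0.325 to 4.36 in the AA kidneys and rose by 1.04 (SE 0.32, adjusted p = 0.0238), a call held in 6 of 10 fits without 1 mouse and lost with TPM, the non-mitochondrial total, quantile normalization and centring. *Itga2b*, the platelet chain αIIb, changed by −1.17 (SE 0.29, adjusted p = 0.00872), a call held in all 10. A list of 8 genes of tissue residence and TGF-β signalling, which induces αE, had no call in M vs. C by either tool (7 fitted, 0 at an unadjusted p under 0.05). It had none in AA vs. C by limma (6 fitted, 3 at an unadjusted p under 0.05) and 1 by limma voom (*Itgb6*, which encodes a chain that activates TGF-β).

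The genes most like *Itgb7* over the 15 kidneys were named by Pearson's r of log2(FPKM + 1) among 9030 other protein-coding genes with a mean FPKM of at least 1. Among the first 10 were *Nde1* (r = 0.95, Spearman's rho = 0.82), a dynein regulator, *Jun* (0.89, 0.75), an AP-1 transcription factor, *Ms4a4a* (0.89, 0.89), a membrane protein of macrophages, and *Ccl5* (0.87, 0.76), a chemokine. After them came *Il1b* (0.86, 0.78), the inflammatory cytokine, *Lgals3* (0.86, 0.75), the galectin of macrophages and injured tubules, *Tead2* (0.86, 0.76), a Hippo pathway transcription factor, *Itgb2* (0.85, 0.83), at rank 9, and *Cd300c2* (0.85, 0.79), a myeloid receptor. *Rarg* ranked 136 (r = 0.68), and *Itgb1* 4847 (r = −0.12). The points share libraries, depth and group, so each r mixes differences between and within the 3 groups and is given as a description.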

How the data were processed

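Kidney RNA of 15 mice was sequenced, 5 each in the C, M and AA groups as the labels give them. The authors trimmed poly-A reads with fastp, aligned them to mm10 with HISAT2 2.0.5, counted them on genes with featureCounts 1.5.0-p3 and deposited FPKM values. The annotation behind them is not given in the sources used here. Genes were named by Ensembl identifier from GENCODE M21 (GRCm38), which lacked 37 of 54532.

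The 8 genes, the 18 gene lists and the tests were chosen with earlier results of these data known. Each comparison was fitted with limma 3.58.1 (R 4.3.3) on log2(FPKM + 1) with an intensity trend, using its 10 libraries and the genes above 0 in 5 or more. A call required a p adjusted by Benjamini-Hochberg of 0.05 or less together with a log2 fold change of 1 or more, up or down. The authors' own test used counts, which were not used here. P-values measure the spread between these mice.

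The reads behind a value were recovered from the step in FPKM that 1 read makes at a given exon length, and 97.7 to 99.4% of the low values tested fell on whole reads (tolerance 0.05). Outside the mitochondrial genome the libraries held 2077628 to 13576597 reads, and these numbers cover counting error only. limma voom on them, with the library sizes behind the FPKM, was an alternative and called 374 genes in M vs. C, 4007 in AA vs. M and 7729 in AA vs. C.

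The text names the 8 genes, list genes called in M vs. C or AA vs. C, the ligands *Madcam1*, *Vcam1*, *Icam1*, *Fn1* and *Cdh1*, the 10 protein-coding genes most correlated with *Itgb7*, and its neighbours, while *Fermt3*, *Ptprc* and *Ilk* were named after their values were seen. Of the genes this rule takes, 2 are not reported here. Calls in marker lists are given as counts with a few names. Promoters are from RefSeq and were searched with fixed letters. The fits were tested on simulated data. Alternatives changed the pseudocount, filter, scaling, model or libraries used. Python 3.11.15, numpy 2.4.6, pandas 2.3.3 and matplotlib 3.10.9 were used.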

Additional observations from a re-analysis of the deposited data

Results flagged for a closer look

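Of the 24 series of 5 kidneys (8 genes in 3 groups), 6 had 1 kidney far from the other 4 by Dixon's ratio (above 0.71). Chance gives about 1 in 20 only for independent series of normal values, which low FPKM values need not be. Of the 6 flags, 5 were C mouse 4, so they are not independent. Its FPKM was 1.35 for *Itgb7* (next highest C kidney 0.521), 1.56 for *Itgb2* (0.414), 1.31 for *Itgax* (0.321), 0.565 for *Itgam* (0.124) and 0.342 for *Itga4* (0.124). The summed FPKM of the pan-leukocyte markers was also highest there in the C group, 36.2 against 4.50 to 9.83 in the other 4 C kidneys, and its part in these values was not tested. Without C mouse 4 the log2 fold change of *Itgb2* was 1.87 (SE 0.37, limma adjusted p = 0.0397) in M vs. C and 0.85 (limma adjusted p = 0.0119) in AA vs. C, and that of *Itgb7* in AA vs. C was −0.02. The sixth was *Itgal* in AA mouse 3, with an FPKM of 0.223 while the other 4 AA kidneys were listed at 0. With 4 kidneys at 0 the ratio is 1 whatever the fifth value, so this flag carries no information.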

How the results depend on the processing

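Over all genes, 291 were called in M vs. C (19.6% higher), 2533 in AA vs. M (91.6% higher) and 4346 in AA vs. C (51.6% higher). In M vs. C the number became 33 without the filter (33.3% higher), 448 with a mean FPKM of at least 1, 1609 with TPM (1.93% higher), 786 with all 15 libraries in one fit and 0 with M mice 4 and 5 only (2489 at an unadjusted p under 0.05). Centring on the library median raised the share of higher calls to 38.9%. In AA vs. M it became 422 with TPM, 4007 by limma voom and 1656 with M mice 4 and 5 only (27.8% higher), and 69.5% and 43.1% of the calls were higher with quantile normalization and centring. In AA vs. C it became 7474 with a pseudocount of 0.1, 6785 with TPM (12.7% higher) and 7729 by limma voom, and centring gave 40.1% higher. The median log2 fold change of all genes moved from −0.12 to −0.58 (TPM), 0.04 (quantile) and 0.24 (centring) in M vs. C, from 0.17 to −0.10 (quantile) and −0.35 (centring) in AA vs. M, and from 0.09 to −0.39 (TPM) and −0.06 (centring) in AA vs. C.

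Of the 8 genes, 2 were called in M vs. C, *Itgb2* and *Itgb7*, which was chosen on its M values. The count was 1 without the filter, with TPM, with the replicate block and by limma voom, and 0 with M mice 4 and 5 only. The 1 called in AA vs. M became 2 with quantile normalization and with all 15 libraries in one fit and 3 with centring, and the 0 in AA vs. C became 1 with a pseudocount of 0.1 and by limma voom. Leaving out 1 mouse gave 4 (without C mouse 5) to 954 (without M mouse 5) genes and 0 to 2 of the 8 in M vs. C. It gave 1805 to 2897 genes and 1 to 2 of the 8 in AA vs. M, and 3463 to 4770 genes and 0 of the 8 in AA vs. C. In M vs. C none of the 8 was called without C mouse 5 or without M mouse 3. The causes were not tested.

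The mouse numbers do not pair the samples: same-numbered mice correlated at −0.13 to 0.22 in their deviations from the group means, and not every mouse correlated best with its own number. With the replicate number as a block 152 genes were called in M vs. C, 2217 in AA vs. M and 4345 in AA vs. C.

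The difference in the log2 ratio of *Itgb7* to *Itga4* was 2.12 between M and C and −2.41 between AA and M, and with a pseudocount of 0.1 it was 3.17 and −4.29. M mice 4 and 5 gave 1.73 in M vs. C. To *Itgae* it went from 2.28 to 4.03 and from −2.44 to −4.38, to *Ptprc* from 1.92 to 2.73 and from −2.68 to −4.66, and to *Itgb2* in AA vs. M from −1.38 to −2.68, all with a pseudocount of 0.1. The signs of the log2 fold changes of *Itgb7* and *Itgb2* in both comparisons with the M group held under every alternative. The sign turned only where a value was not called. In M vs. C *Itgae* turned to 0.0371 with quantile normalization, 0.30 with centring and 0.21 with M mice 4 and 5 only. *Itgal* turned to 0.0229, 0.29 and 0.25 under the same settings, and *Itgb1* to −0.71 with TPM and −0.51 with M mice 4 and 5 only. In AA vs. C *Itga4* turned to −0.0275 with TPM and −0.0468 with centring, *Itgb1* to −0.40 and *Itgam* to −0.0180 with TPM. *Itgax* turned to −0.0674 with a pseudocount of 0.1, −0.33 with TPM, −0.0786 with quantile normalization, −0.14 with centring and −0.32 by limma voom. Leaving out 1 mouse gave −0.12 to 0.0404 for *Itgae* and −0.14 to 0.20 for *Itgax* in AA vs. C. In AA vs. M, among others, *Itga4* (0.01) went to −0.29 with quantile normalization and −0.51 with centring, *Itgae* (0.04) to −0.15 and −0.47 under the same settings, and *Itgb1* (0.39) to −0.13 with centring. Depth limits *Itga4*, *Itgae*, *Itgal* and *Itgb7* in the AA group, with 0 to 75 recovered reads per library for *Itga4*, *Itgae* and *Itgb7*.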
